A study of Mus musculus with 12 samples.

Results

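Pam2CSK4 is a synthetic diacylated lipopeptide that engages Toll-like receptor 2 (TLR2). This account compares resting B (RB) cells given Pam2CSK4 alone with RB cells left unstimulated, which takes 4 of the 12 arrays of the series, 2 for each condition. The arrays were chosen by their labels: the Pam2CSK4 arrays name that ligand and no antibody, and the unstimulated arrays name no treatment. All cells came from spleens of BALB/c mice, labelled female and 6 weeks old, were enriched by removal of CD43-bearing cells on magnetic beads, and were harvested at 4 h. No transgene or deletion is named for any group. The other 8 arrays of the series held anti-CD86, anti-CD40 and each antibody with Pam2CSK4 (with anti-CD86 called TLR2.CD86), again 2 arrays per condition. The study's text speaks of 2 biological replicates without saying whether spleens were pooled, so the p-values measure the spread between these arrays, which may be partly technical.

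TLR2 sits at the cell surface and pairs with TLR1 or TLR6, and diacylated lipopeptides are classically read by the TLR2 and TLR6 pair. The receptors recruit the adaptor MyD88, which passes the signal through IRAK kinases to the NF-κB transcription factors. NF-κB in turn drives genes for cytokines, for survival proteins and for its own inhibitors. In mouse spleen, resting B cells are small non-dividing cells that carry several TLRs and can respond to such ligands without engagement of the B cell receptor.

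The signal of a probe is its log2 background-corrected intensity minus the 75th percentile of its array, so that 0 is the 75th percentile, and all levels below are on that scale. It allows a probe to be compared between arrays, not one gene with another. Of the spots on each array, 46.7% to 50.6% were well above background. Slide and condition overlapped in part, because both unstimulated arrays and Pam2CSK4 replicate 1 were on slide 1 and Pam2CSK4 replicate 2 was on slide 2. The unstimulated arrays differed from each other by a median of 0.08 (log2) per probe and the Pam2CSK4 arrays by 0.26, which became 0.07 after a slide term estimated from the 4 conditions with an array on each slide. Pam2CSK4 is among these 4 conditions, so its own arrays helped to set the term. Part of that reduction is therefore built in, and it is not independent evidence for the term. The fitted values below include that term, with the standard error (SE) of the fit over 12 arrays, and the values of single arrays are printed before it.

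Markers were checked first. All 7 B cell markers were tested and Cd22 and Blk were among those called higher with Pam2CSK4, while the signal of Ms4a1 (CD20) was 6.68 and 6.70 in unstimulated cells and 6.62 and 6.47 with Pam2CSK4. By their brightest probe none of the 8 T cell and 7 NK cell markers was called by limma, and 1 and 3 of them had an unadjusted p under 0.05, while 1 T cell marker had a dimmer probe called lower. Of 10 myeloid markers, 6 were called lower, 1 (Cd14) higher and 3 were not called, of which 2 were saturated. Over all genes tested, 10.4% were called lower and 4.85% higher. The summed linear signal of the measured myeloid markers was 297.9 and 300.4 in unstimulated cells and 224.5 and 199.8 with Pam2CSK4. Mpo, the neutrophil granule enzyme myeloperoxidase, read 7.25 and 7.28 against 6.70 and 6.38, a fall of 0.54 ± 0.06 (log2, SE, adjusted p = 0.0046). Of 3 red cell markers tested 1 was called higher, and of 4 plasma cell markers 1 was called lower. In TLR2.CD86 minus anti-CD86 all 3 red cell markers were called higher, beside 3.06% of all genes called higher and 6.39% lower there. None of the calls among B cell and myeloid markers was made without the slide term or with the arrays scaled to their medians, and none of the myeloid calls held under every omission of 1 array. Their part in the results for cytokine genes, which myeloid cells also express, was not tested. In RNA of a whole sample, fewer cells of a type and less RNA per cell cannot be told apart.

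Pam2CSK4 changed many transcripts by a little and few by a lot. Of 29181 probes tested, 4034 (13.8%) had an adjusted p under 0.05, the threshold for a call throughout, of which 1660 (5.69%) were higher and 2374 (8.14%) lower. The median size of a called change was 0.40 (log2). Only 195 called probes were at least 2-fold higher and 106 at least 2-fold lower, so that rises made up 41.2% of all calls and 64.8% of those past 2-fold. With the arrays scaled to their medians 694 probes were called, of which 63.4% were higher, and without the slide term 60.7% of the calls were higher. Leaving out any 1 of the 4 arrays likewise made rises the majority, at 55.6% to 68.6% of calls. By gene, 670 of 13808 (4.85%) were called higher and 1436 (10.4%) lower, with 64 and 34 past 2-fold. The array values of both conditions did not overlap, before the slide term, for 8633 of the 13808 genes tested (62.5%). Non-overlap, given for single genes below, was thus a trait of most genes and does not set a gene apart. A gene is given by its brightest probe, and 22 of the 285 genes of the lists below that were not called had a dimmer probe that was. Those lists were chosen with earlier results of these data known, so their counts and medians are descriptions and not independent evidence.

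The number of calls rested on the slide term. Without it 61 probes and 26 genes were called, of which 18 genes were higher and 8 lower, and all of them were called in the same direction with it. The 4 arrays fitted alone, and slide 1 alone, gave 0 calls by limma, with 7777 and 8121 probes at an unadjusted p under 0.05. Leaving out 1 of the 4 arrays in turn left 280 to 826 probes called. There were 75 genes called under each of these omissions, 52 higher and 23 lower. Nfkbiz, Nfkbid, Bcl2l1, Pim1, Il2ra, Icam1, Il12b, Tnf and Irf4 were among them.

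**Figure D1:**
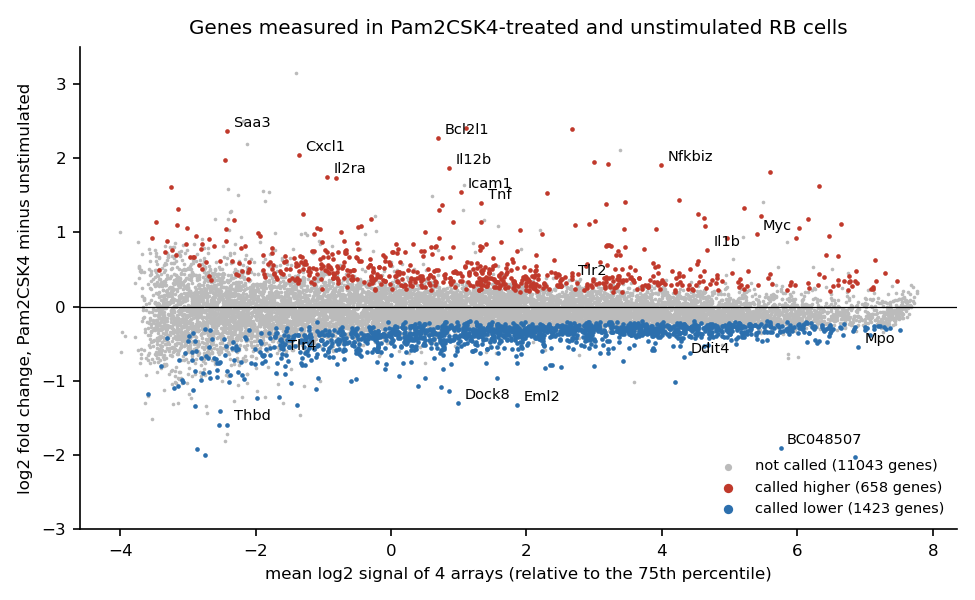
Fitted log2 difference between Pam2CSK4 and unstimulated RB cells (vertical axis) against the mean log2 signal over the 4 arrays (horizontal axis) for 13124 genes measured without saturation or a background limit; colours mark 658 genes called higher, 1423 called lower and 11043 not called. Most called genes lie within 1 log2 unit of 0, and the points farthest from 0 are mostly rises.

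Some receptors and co-receptors of the TLR2 pathway showed small rises. Of 20 tested genes of the TLR2 receptor and adaptor list, 4 were called higher and 1 lower, with a median of 0.09 (log2) against −0.09 over all measured genes, beside 4.85% of all genes called higher and 10.4% lower. None of the 5 calls was made without the slide term or with median scaling. Tlr1 read 0.59 and 0.54 in unstimulated cells and 1.36 and 1.14 with Pam2CSK4. The groups did not overlap, and the fitted rise was 0.80 ± 0.07 (log2, SE; adjusted p = 0.00292). Tlr2 itself read 2.52 and 2.60 against 2.88 and 2.71, with a fitted rise of 0.37 ± 0.06 (adjusted p = 0.0184, and 0.45 without the slide term). The signal of Tlr6, the other partner of TLR2, was 1.00 and 0.96 against 1.03 and 0.92 (0.08 ± 0.19, adjusted p = 0.81). Cd14, which encodes a lipid-binding co-receptor, read 3.01 on both unstimulated arrays and 3.51 and 3.25 with Pam2CSK4 (0.55 ± 0.08, adjusted p = 0.0101). Lbp, for the lipopolysaccharide-binding protein, was higher by 0.56 (adjusted p = 0.0258). Cd14 is also a myeloid marker, and its direction was opposite to that of the other called myeloid markers.

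Adaptors and other receptors follow. Myd88, the adaptor of most TLRs, read 2.97 and 2.99 in unstimulated cells and 3.18 and 3.11 with Pam2CSK4, and its difference of 0.26 missed the threshold (adjusted p = 0.0537). Sigirr, for a receptor of the same superfamily that restrains TLR signalling, fell by 0.24 (adjusted p = 0.0474). Among 8 tested genes for other TLRs and RP105, 1 was called, beside 4.85% of all genes called higher and 10.4% lower. This was Tlr4, the lipopolysaccharide receptor, which read −1.38 and −1.34 against −1.99 and −1.73, a fall of 0.64 ± 0.06 (adjusted p = 0.00398). Both Pam2CSK4 arrays lay below both unstimulated arrays.

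Among 5 tested genes for NF-κB subunits, 3 were called higher and none lower, beside 4.85% and 10.4% of all genes, with a list median of 0.29 (log2). Nfkb1, the precursor of p50, read 6.65 and 6.73 in unstimulated cells and 7.15 and 6.93 with Pam2CSK4 (0.48 ± 0.07, adjusted p = 0.0123). Rela, which encodes p65, rose by 0.39 (adjusted p = 0.0108), and its dimmer probe by 0.72 (adjusted p = 0.0108). Nfkb2, the precursor of p52, read 4.49 and 4.44 against 4.74 and 4.35, so that its groups overlapped before the slide term, and its fitted rise was 0.29 (adjusted p = 0.0199). The differences of Relb (0.12, adjusted p = 0.144) and of the brightest probe of Rel (0.03, adjusted p = 0.86) did not pass. Another probe of Rel gave 0.73 (adjusted p = 0.531). None of the 3 calls was made without the slide term, and none held under every omission of an array.

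Of 15 tested inhibitor and feedback genes of the pathway, 9 were called higher, none lower and 6 not, with a median of 0.34 (log2), against 4.85% of all genes called higher. Nfkbiz, for the atypical nuclear inhibitor IκBζ that also acts as a co-activator, read 3.11 and 3.06 in unstimulated cells and 4.99 and 4.81 with Pam2CSK4. Both Pam2CSK4 arrays stood well above both unstimulated arrays, and the rise of 1.91 ± 0.07 (log2, SE), or 3.76-fold, passed with the slide term (adjusted p = 0.00062) and without it (0.00326). Nfkbid, for the related nuclear protein IκBNS, read 2.45 and 2.50 against 3.56 and 3.18. Its rise was 1.11 ± 0.07 (adjusted p = 0.00121, and 0.154 without the slide term). Both calls held under every omission of an array. Of the list, 2 genes were called with median scaling and 1 without the slide term.

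The remaining 7 called feedback genes rose by 0.26 to 0.51. Traf1, a signalling adaptor of TNF receptors, read 3.09 and 3.11 in unstimulated cells and 3.61 and 3.42 with Pam2CSK4 (0.51 ± 0.06, adjusted p = 0.00713). Nfkbie, for the cytoplasmic inhibitor IκBε, read 4.39 and 4.36 against 4.86 and 4.87 (0.48 ± 0.05, adjusted p = 0.0044). In both genes the groups did not overlap. Traf3 rose by 0.44, Tnip1 by 0.34, Tnfaip3 (the ubiquitin-editing enzyme A20) by 0.33, Nfkbib by 0.33 and Birc2 by 0.26, with adjusted p from 0.013 to 0.0414. Birc3 differed by 0.53 ± 0.14 and did not pass (adjusted p = 0.0538). Its unstimulated arrays read 5.71 and 5.28. Nfkbia, for the main inhibitor IκBα, was saturated on the arrays and gave no usable difference.

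NF-κB binds a short consensus sequence, and the 250 bases before the start sites of the tested genes were searched for the NF-κB consensus on both strands in the RefSeq promoters of build GRCm38.p6. The stretches below are shown because these genes of the receptor, cytokine, inhibitor and activation groups rose and hold a match. Each runs 5′ to 3′ on the strand of the gene up to the base before its start, with the match in capitals. Tlr2 lies on the minus strand at chr3:83841609-83841858 with its match 173 bases before the start. Cxcl1 is on the plus strand at chr5:90890995-90891244 (71 bases before), and Cxcl10 is on the minus strand at chr5:92348890-92349139 with 2 matches, 159 and 104 bases before. Il6 is on the plus strand at chr5:30012864-30013113 (44 bases before), Il2ra on the plus strand at chr2:11642542-11642791 (201 bases before) and Nfkbie on the plus strand at chr17:45555450-45555699 (106 bases before).
Tlr2: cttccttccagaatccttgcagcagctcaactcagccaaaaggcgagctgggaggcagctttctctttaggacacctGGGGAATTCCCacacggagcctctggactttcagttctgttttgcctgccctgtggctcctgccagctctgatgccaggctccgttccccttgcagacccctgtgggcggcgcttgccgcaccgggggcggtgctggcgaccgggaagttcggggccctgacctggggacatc
Cxcl1: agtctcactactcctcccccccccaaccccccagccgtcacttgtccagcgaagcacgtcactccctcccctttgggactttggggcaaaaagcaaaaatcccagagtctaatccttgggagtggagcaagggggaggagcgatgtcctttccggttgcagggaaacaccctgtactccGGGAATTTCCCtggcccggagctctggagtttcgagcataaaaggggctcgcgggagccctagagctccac
Cxcl10: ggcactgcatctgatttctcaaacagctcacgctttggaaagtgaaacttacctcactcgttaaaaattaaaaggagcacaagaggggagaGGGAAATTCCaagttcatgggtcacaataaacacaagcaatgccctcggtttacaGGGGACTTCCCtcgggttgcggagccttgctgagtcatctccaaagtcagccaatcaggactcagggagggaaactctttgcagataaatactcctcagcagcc
Il6: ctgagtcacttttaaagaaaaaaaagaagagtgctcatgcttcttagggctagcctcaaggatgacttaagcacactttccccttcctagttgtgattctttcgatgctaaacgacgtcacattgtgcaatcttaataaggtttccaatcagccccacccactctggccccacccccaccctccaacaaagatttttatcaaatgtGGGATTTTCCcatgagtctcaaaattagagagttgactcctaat
Il2ra: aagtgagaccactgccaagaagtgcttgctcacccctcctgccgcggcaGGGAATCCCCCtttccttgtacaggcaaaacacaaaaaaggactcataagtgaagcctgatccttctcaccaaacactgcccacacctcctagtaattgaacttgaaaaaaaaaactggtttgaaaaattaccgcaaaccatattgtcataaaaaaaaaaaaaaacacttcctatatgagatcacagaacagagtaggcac
Nfkbie: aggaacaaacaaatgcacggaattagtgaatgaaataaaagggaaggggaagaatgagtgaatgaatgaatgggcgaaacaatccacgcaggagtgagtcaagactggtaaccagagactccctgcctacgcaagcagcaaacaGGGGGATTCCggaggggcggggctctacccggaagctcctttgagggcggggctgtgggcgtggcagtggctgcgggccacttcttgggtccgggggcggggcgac

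Matches of this kind are common. They were in 7.25% of 32851 promoters in the RefSeq table. Among genes with 1 listed start they were in 677 of 7874 tested genes (8.60%), 46 of 388 called higher (11.9%), 59 of 827 called lower (7.13%) and 4 of 39 called at least 2-fold higher (10.3%). These shares are descriptions and were not tested. The windows of Il12b, Tnf, Icam1, Irf4, Il1b and Saa3, which also rose, hold no match to these letters, which says nothing about more distant sites.

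Of 11 tested survival genes, 6 were called higher, 1 lower and 4 not, beside 4.85% of all genes called higher and 10.4% lower, and the median was 0.77 (log2). With median scaling 4 were called and without the slide term 2. Bcl2l1, which encodes the anti-apoptotic protein Bcl-xL, read −0.35 and −0.48 in unstimulated cells and 1.82 and 1.78 with Pam2CSK4. The groups were more than 2 log2 units apart with no overlap, and the rise of 2.27 ± 0.10, or 4.82-fold, passed with the slide term (adjusted p = 0.000626) and without it (0.00269). Of its other probes, one rose by 2.42, and the other, not well above background in unstimulated cells, was at least 2.39-fold higher. Pim1, for a kinase that promotes survival, read 2.77 and 2.89 against 4.23 and 3.92 (1.41 ± 0.08, adjusted p = 0.00114, and 0.0546 without the slide term). Bcl2a1b and Bcl2a1a, members of the A1 family of anti-apoptotic genes, rose by 1.06 ± 0.07 and 0.95 ± 0.08 (adjusted p = 0.00141 and 0.00292). Their sequences are nearly identical, so the probes may not tell them apart.

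Other kinases of the PIM family followed. Pim2 rose by 0.80 ± 0.06 (adjusted p = 0.00187) and Pim3 by 0.77 ± 0.09 (adjusted p = 0.00709). Bcl2l2, for the anti-apoptotic protein Bcl-w, fell by 0.40 (adjusted p = 0.0434). Bcl2 and Mcl1 differed by 0.06 (adjusted p = 0.534) and 0.13 (adjusted p = 0.128). Calls for 5 of the 6 risen survival genes held under every omission of an array, and Pim3 lost its call under 1 or more of them.

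Of 16 tested pro-apoptotic genes, 2 were called higher, 6 lower and 8 not, with a median of −0.28 (log2), beside 4.85% of all genes called higher and 10.4% lower. Ddit4, a stress-induced inhibitor of mTORC1, read 4.74 on both unstimulated arrays and 4.04 and 3.79 with Pam2CSK4. Both Pam2CSK4 arrays were lower, by a fitted 0.68 ± 0.06 (adjusted p = 0.00292). The caspase gene Casp9 fell by 0.39 and the receptor gene P2rx7 by 0.40 (adjusted p = 0.0422 and 0.0202). Among BH3-only genes, Bbc3 (PUMA) fell by 0.36 and Pmaip1 (NOXA) by 0.32. Bcl2l11 (BIM) had a fitted rise of 0.24 (adjusted p = 0.0406). Its arrays read 5.16 and 5.19 in unstimulated cells and 5.44 and 5.09 with Pam2CSK4, and so overlapped before the slide term. The other probe of Bcl2l11 was not called (0.18, adjusted p = 0.164). Fas, a death receptor that NF-κB also induces, read 1.76 on both unstimulated arrays and 2.28 and 2.06 with Pam2CSK4 (0.53 ± 0.09, adjusted p = 0.0146). None of these calls was made without the slide term.

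**Figure D2:**
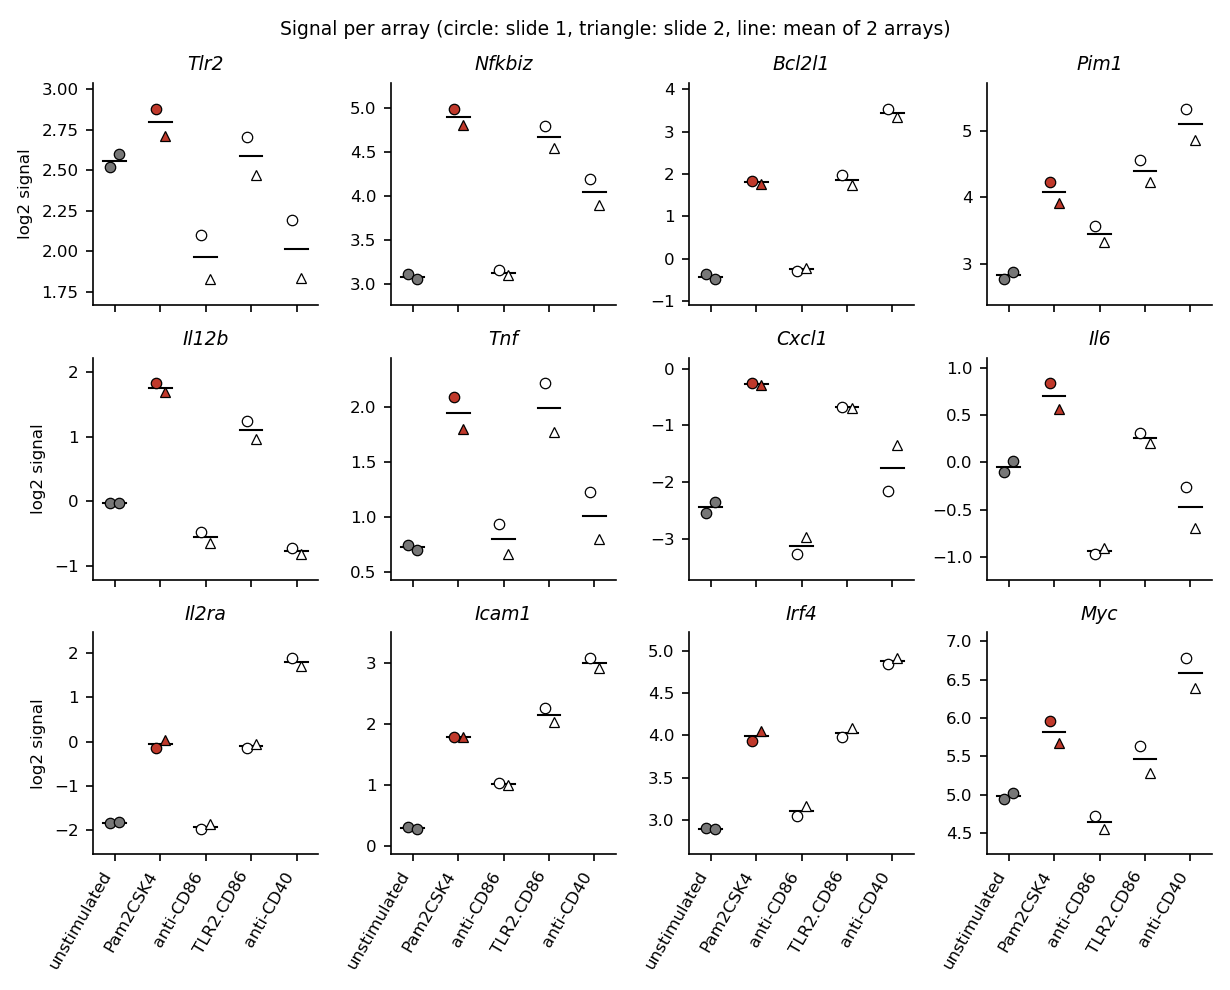
Log2 signal of 12 genes relative to the 75th percentile of each array, in unstimulated, Pam2CSK4, anti-CD86, TLR2.CD86 and anti-CD40 cells; each point is 1 array (circles slide 1, triangles slide 2) and each line the mean of 2 arrays. Nfkbiz, Bcl2l1, Pim1, Il12b, Tnf, Cxcl1, Il2ra, Icam1 and Irf4 lie over 1 log2 unit higher with Pam2CSK4 than in unstimulated cells by the fit, and Tlr2 by 0.37.

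Most cytokine and chemokine genes rose. Of 17 tested, 11 were called higher and 2 lower, beside 4.85% and 10.4% of all genes, and the median was 0.76 (log2), while 6 were called with median scaling and 2 without the slide term. Il12b, the p40 subunit shared by IL-12 and IL-23, read −0.02 and −0.03 in unstimulated cells and 1.82 and 1.69 with Pam2CSK4. The groups did not overlap, and the rise of 1.87 ± 0.08, or 3.64-fold, passed with the slide term (adjusted p = 0.00062) and without it (0.00326). Il12a, for the p35 subunit that pairs with p40 in IL-12, differed by 0.04 (adjusted p = 0.704). Tnf read 0.75 and 0.70 against 2.09 and 1.80, a rise of 1.40 ± 0.07 (adjusted p = 0.000797, and 0.0614 without the slide term). Il6 read −0.11 and 0.01 against 0.84 and 0.57 (0.84 ± 0.13, adjusted p = 0.0126). Il1b read 4.28 and 4.30 against 5.09 and 4.99 (0.76 ± 0.09, adjusted p = 0.00713). In each of these 4 risen genes both Pam2CSK4 arrays were above both unstimulated arrays. Of all genes tested, 62.5% had arrays apart in one direction or the other.

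Il10, which encodes a regulatory cytokine of B cells, also rose. It read 0.63 and 0.61 in unstimulated cells and 1.34 and 0.91 with Pam2CSK4 (0.67 ± 0.06, adjusted p = 0.00348). Clcf1, a B cell stimulatory cytokine of the gp130 family, read −1.35 and −1.23 against −0.52 and −0.79 (0.77 ± 0.09, adjusted p = 0.00741). Ltb, for lymphotoxin β, was called lower (adjusted p = 0.0257), but both unstimulated arrays were saturated, so the size of its fall was not measured.

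Chemokines for neutrophils and for T cells were among the risen genes. Cxcl1, a neutrophil attractant, read −2.55 and −2.34 in unstimulated cells and −0.26 and −0.29 with Pam2CSK4. The rise of 2.04 ± 0.22, or 4.10-fold, passed with the slide term (adjusted p = 0.00492) and without it (0.0213), but 1 omission of an array took its adjusted p to 0.0576. Cxcl2, of the same group, rose by 0.89 ± 0.18 (adjusted p = 0.0253). Cxcl10, an interferon-inducible attractant of T cells, read −0.17 and 0.23 against 1.04 and 0.90 (1.00 ± 0.16, adjusted p = 0.0143). Ccl17, which attracts CCR4-bearing T cells, rose by 1.15 ± 0.22 (adjusted p = 0.0225). Ccl3 read 3.90 and 3.92 against 4.39 and 4.40, a rise of 0.48 (adjusted p = 0.00843). Ccl5 fell by 0.25 (adjusted p = 0.0282), and Ccl4 differed by −0.10 (adjusted p = 0.315). The calls for Il12b, Tnf and Il10 held under every omission of an array.

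Receptors for cytokines split between directions. Of 16 tested, 4 were called higher and 2 lower, with a median of 0.08, beside 4.85% and 10.4% of all genes. None of the 6 was called without the slide term or with median scaling. Il21r, the receptor for a helper T cell cytokine that drives B cell differentiation, read 0.96 and 1.01 in unstimulated cells and 1.75 and 1.52 with Pam2CSK4 (0.81 ± 0.06, adjusted p = 0.00215). Il2rg, the common γ chain that IL-21R also uses, rose by 0.48, Il4ra by 0.30 and Il10ra by 0.28. Tnfrsf1a, for TNF receptor 1, fell by 0.46 (adjusted p = 0.00929) and Ifngr1 by 0.26 (adjusted p = 0.0467). Of 8 SOCS family genes, which damp cytokine signals, 1 was called, Socs1, which fell by 0.45 (adjusted p = 0.0145).

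Activation and costimulation genes rose in part. Of 17 tested, 5 were called higher and none lower, beside 4.85% and 10.4% of all genes, with a median of 0.14. Il2ra, for the IL-2 receptor α chain CD25, read −1.85 and −1.82 in unstimulated cells and −0.15 and 0.03 with Pam2CSK4. The groups were over 1.5 log2 units apart, and the rise of 1.75 ± 0.10, or 3.36-fold, passed with the slide term (adjusted p = 0.00121) and without it (0.00269). Icam1, an adhesion ligand for T cells, read 0.31 and 0.27 against 1.78 on both Pam2CSK4 arrays (1.54 ± 0.07, adjusted p = 0.000695, and 0.00326 without the slide term). Ebi3, a subunit of IL-27 and IL-35, rose by 0.81 ± 0.06 (adjusted p = 0.00187). Cd40 read 2.71 and 2.72 against 3.22 and 2.92, a rise of 0.58 (adjusted p = 0.00713). Cd69, an early activation marker, overlapped between groups before the slide term, at 4.16 and 4.17 against 4.43 and 4.12, with a fitted rise of 0.31 (adjusted p = 0.0355).

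The B7 ligands were not called. Cd86, the costimulatory ligand targeted by antibody in the other conditions, read 1.41 and 1.43 in unstimulated cells and 1.55 and 1.39 with Pam2CSK4 (0.15 ± 0.07, adjusted p = 0.179). Cd80 read −1.96 and −2.17 against −1.50 and −1.64 and missed the threshold with a difference of 0.57 ± 0.22 (adjusted p = 0.132). Cd83 was saturated. By their brightest probe, saturated for 2 of them, none of the 11 tested MHC class II genes was called by limma, 1 had an unadjusted p under 0.05, and their median was −0.07. Dimmer probes were called higher for 1 of them, H2-Ab1 (0.50, adjusted p = 0.013), and lower for 1, Ciita (−0.84, adjusted p = 0.00545). That probe of Ciita read 0.22 and 0.06 in unstimulated cells and −0.67 and −0.81 with Pam2CSK4. Fcer2a (CD23), on the list of follicular and marginal zone genes, rose by 0.45 (adjusted p = 0.00744), and Cd9, from the same list, fell by 0.32 (adjusted p = 0.0231). That list had 1 gene higher and 2 lower of 11, beside 4.85% of all genes called higher and 10.4% lower.

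**Figure D3:**
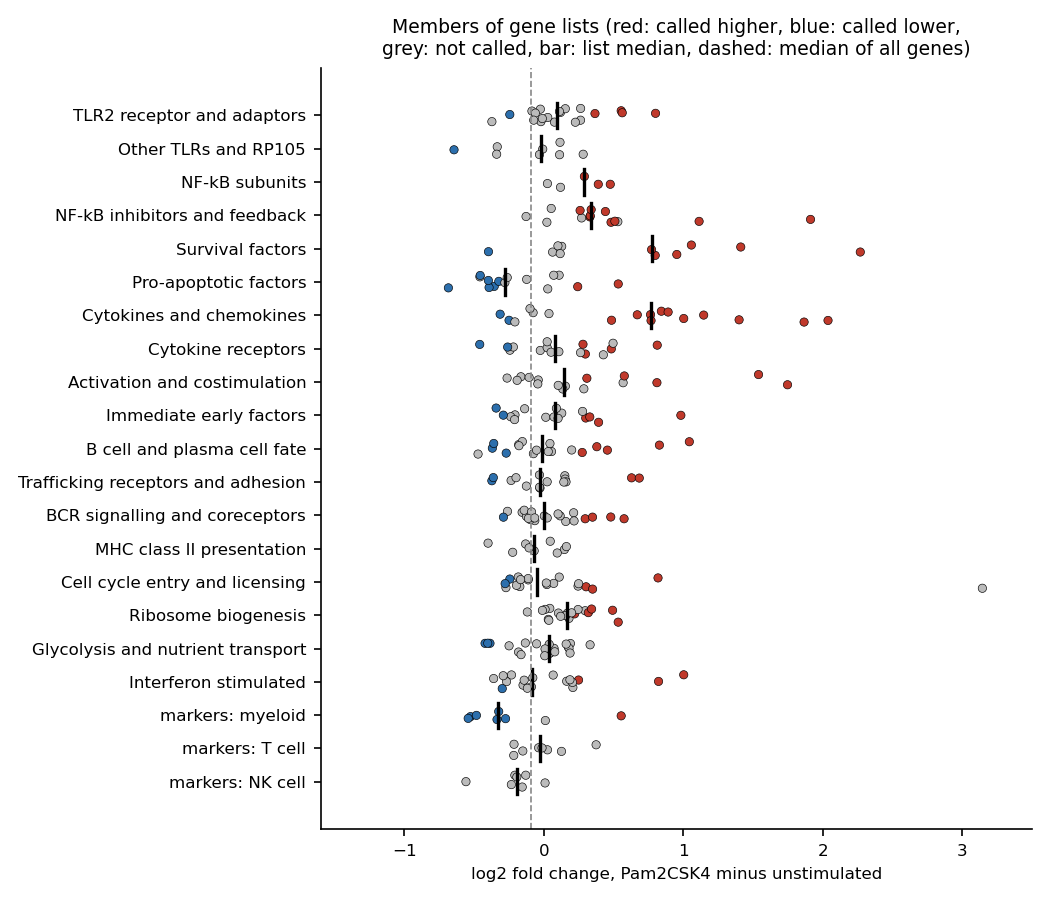
Fitted log2 difference between Pam2CSK4 and unstimulated RB cells for the measured members of each gene list (points, red called higher, blue called lower, grey not called), with the list median as a bar and the median of all measured genes, −0.09, as a dashed line. Survival factors (0.77) and cytokines (0.76) have the medians farthest above the dashed line, among lists chosen with earlier results of these data known.

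Transcription factors of B cell fate and early response changed in both directions. Of 18 fate genes, 5 were called higher and 3 lower, with a median of −0.01, beside 4.85% and 10.4% of all genes, and Irf4 alone was called without the slide term or with median scaling. Irf4, which promotes plasma cell differentiation and class switching, read 2.90 and 2.89 in unstimulated cells and 3.93 and 4.06 with Pam2CSK4. The arrays of each group were close and the groups apart, with a rise of 1.04 ± 0.05 (adjusted p = 0.00085, and 0.0103 without the slide term). Batf, a partner of IRF4 on DNA, read 2.84 and 2.86 against 3.70 and 3.49 (0.83 ± 0.09, adjusted p = 0.00543). Spib rose by 0.46, Ikzf3 by 0.38 and Id2 by 0.27. Bach2, which restrains plasma cell differentiation, read 4.99 on both unstimulated arrays and 4.59 and 4.33 with Pam2CSK4, a fall of 0.37 (adjusted p = 0.0197). Xbp1, which drives the secretory program of plasma cells, fell by 0.36 (adjusted p = 0.014) and the co-activator gene Pou2af1 by 0.27 (adjusted p = 0.0383). Prdm1, for the plasma cell regulator BLIMP-1, read −0.22 on both unstimulated arrays and −0.18 and −0.33 with Pam2CSK4 (0.03 ± 0.15, adjusted p = 0.903).

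Among 19 immediate early genes, 4 were called higher and 2 lower, beside 4.85% and 10.4% of all genes, and 3 were saturated. Myc read 4.95 and 5.03 in unstimulated cells and 5.96 and 5.68 with Pam2CSK4, a rise of 0.98 ± 0.07 (adjusted p = 0.00184). Nr4a3 rose by 0.39, Ier5 by 0.33 and Fosb by 0.30, whereas Egr2 fell by 0.34 and Nr4a2 by 0.29. Of these, the call for Myc alone held under every omission of an array.

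Genes of growth and metabolism had calls in both directions, beside 4.85% of all genes called higher and 10.4% lower. Of 20 cell cycle genes, 3 were called higher and 2 lower (median −0.05). Ccnd2, a D-type cyclin of entry into the cell cycle, read 2.83 and 2.85 in unstimulated cells and 3.66 and 3.37 with Pam2CSK4 (0.82 ± 0.06, adjusted p = 0.00184). Cdk4, its kinase partner, rose by 0.30 and the replication licensing gene Mcm3 by 0.35, while E2f2 fell by 0.24 and Cdc6 by 0.28. Of 20 ribosome biogenesis genes, 5 were called higher and none lower (median 0.17), led by Rrp12 (0.53, adjusted p = 0.0184) and Nolc1 (0.49, adjusted p = 0.00643). Glycolysis and nutrient transport had 3 calls of 22, all lower, in transporters for glucose and lactate (Slc2a1 by 0.42, Slc16a3 by 0.40 and Slc16a1 by 0.39). Polyamine and nucleotide synthesis had 2 genes higher and 3 lower of 20. None of the calls in these 4 lists was made without the slide term.

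Quiescence genes were called in 3 of 19 cases, Klf4 and Foxo1 lower by 0.45 and 0.27 and Foxp1 higher by 0.35, and 3 others had a dimmer probe called lower. The share called lower over all genes was 10.4%. Receptors for tissue positioning changed in both directions, with 2 higher and 2 lower of 15, beside 4.85% and 10.4% of all genes. Cxcr5, which guides B cells to follicles, read 6.37 and 6.28 in unstimulated cells and 7.01 and 6.74 with Pam2CSK4 (0.68 ± 0.06, adjusted p = 0.00317). Ccr7, which draws cells towards T cell zones, rose by 0.63 ± 0.08 (adjusted p = 0.00713). S1pr1, needed for exit from lymphoid tissue, fell by 0.37 (adjusted p = 0.0376), and Cxcr4 fell by 0.36 (adjusted p = 0.0369). In B cell receptor signalling, 4 of 23 genes were higher and 1 lower, with Syk (0.57), Blk (0.48) and Cd22 (0.35) among the rises and Malt1 down by 0.29. Interferon-stimulated genes gave 3 rises and 1 fall of 19, with Usp18 up by 0.82 ± 0.09 (adjusted p = 0.00455), Irf1 up by 0.25 and Stat2 down by 0.30. Of 18 RGS and DUSP regulators, Dusp14 (1.05 ± 0.14, adjusted p = 0.0096, and 0.0436 without the slide term) and Dusp2 (0.46) rose and Rgs16 (0.58), Rgs2 (0.48) and Dusp6 (0.21) fell. Of 32 genes that the study names in its text, 12 were higher and 6 lower, a list that was chosen on these samples and is not independent evidence of direction.

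The largest changes are given for called genes that were well above background and unsaturated on all 4 arrays, with arrays that did not overlap between conditions. Among these genes the 12 largest rises spanned 1.74 to 2.41 (log2), and not all were in immune genes. Saa3, an acute-phase apolipoprotein, read −3.81 and −3.33 in unstimulated cells and −1.16 and −1.37 with Pam2CSK4 (2.37 ± 0.17, adjusted p = 0.00178, and 0.00326 without the slide term). Cx3cl1, a membrane-anchored chemokine also called fractalkine, read −1.70 and −1.52 against 0.13 and −0.16 (1.74 ± 0.11, adjusted p = 0.00121, and 0.0242 without the slide term). Bcl2l1, Cxcl1, Nfkbiz, Il12b and Il2ra, described above, complete the 7 of these 12 that passed without the slide term too. The other 5 of the 12 did not pass without it, and each had a slide 2 minus slide 1 difference over 0.5. They were 4933406K04Rik (2.41, with a slide difference of 1.58), Krtap10-10 (2.39, slide 2.49), Defa3 (1.95, slide 1.49), Gm8930 (1.92, slide 0.97) and Fbxo2 (1.81, slide 0.80). Krtap10-10 read 1.32 and 0.39 in unstimulated cells and 3.44 and 5.53 with Pam2CSK4, and its Pam2CSK4 arrays were themselves over 2 log2 units apart. Krtap10-10 and Defa3 belong to families of similar genes, and the other probes of Fbxo2 gave 0.07 to 0.34. Ptgs2, the inducible cyclooxygenase, was called higher with and without the slide term. It was left out of the 12 only because 1 unstimulated array was not well above background. Its fitted rise of 1.98 is therefore not a measured size, and no conclusion is drawn from its test.

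The 12 largest falls by the same criteria spanned 1.07 to 1.91. BC048507 read 6.88 and 6.42 in unstimulated cells and 4.70 and 5.01 with Pam2CSK4, a fall of 1.91 ± 0.23 (adjusted p = 0.00708), but its other probe gave −0.14. Eml2, for a microtubule-associated protein, read 2.59 and 2.65 against 1.32 and 0.90 (−1.33 ± 0.06, adjusted p = 0.00062, and 0.0439 without the slide term). Cpxm2, of the carboxypeptidase family, read −0.69 and −0.84 against −2.05 and −1.98 (−1.33 ± 0.12, adjusted p = 0.0036). In each of these genes both Pam2CSK4 arrays were below both unstimulated arrays. Thbd, for the anticoagulant receptor thrombomodulin, read −1.74 and −1.51 against −3.22 and −3.20 (−1.59 ± 0.29, adjusted p = 0.0205). Dock8, for an exchange factor used in B and T cell migration, fell by 1.30 at its brightest probe while its other probe gave 0.05. Metrn fell by 1.07 and its other probe by 1.37. The rest were Slc26a4 (−1.41), Gm8234 (−1.24), Krt2 (−1.22), Gm6809 (−1.13), Col24a1 (−1.11) and Tmem52b (−1.09), and Slc26a4, Gm8234 and Col24a1 had slide differences over 0.5. Of these 12, BC048507, Cpxm2, Eml2 and Gm6809 passed without the slide term. Beside genes for which only a bound can be given, the criteria left out 8 called genes with falls in this range or past it. For 7 of them 1 Pam2CSK4 array was not well above background, and in 1 of these the conditions also overlapped. The other was Slc4a7, for which both unstimulated arrays were saturated. Abhd15, named after its values were seen, was one of the 7 and read −1.73 and −1.66 in unstimulated cells and −3.66 and −3.94 with Pam2CSK4. Because 1 Pam2CSK4 array was not well above background, its fitted fall of 2.00 is not a measured size, and no conclusion is drawn from its test. Abhd15 alone of the 8 was also called without the slide term.

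**Figure D4:**
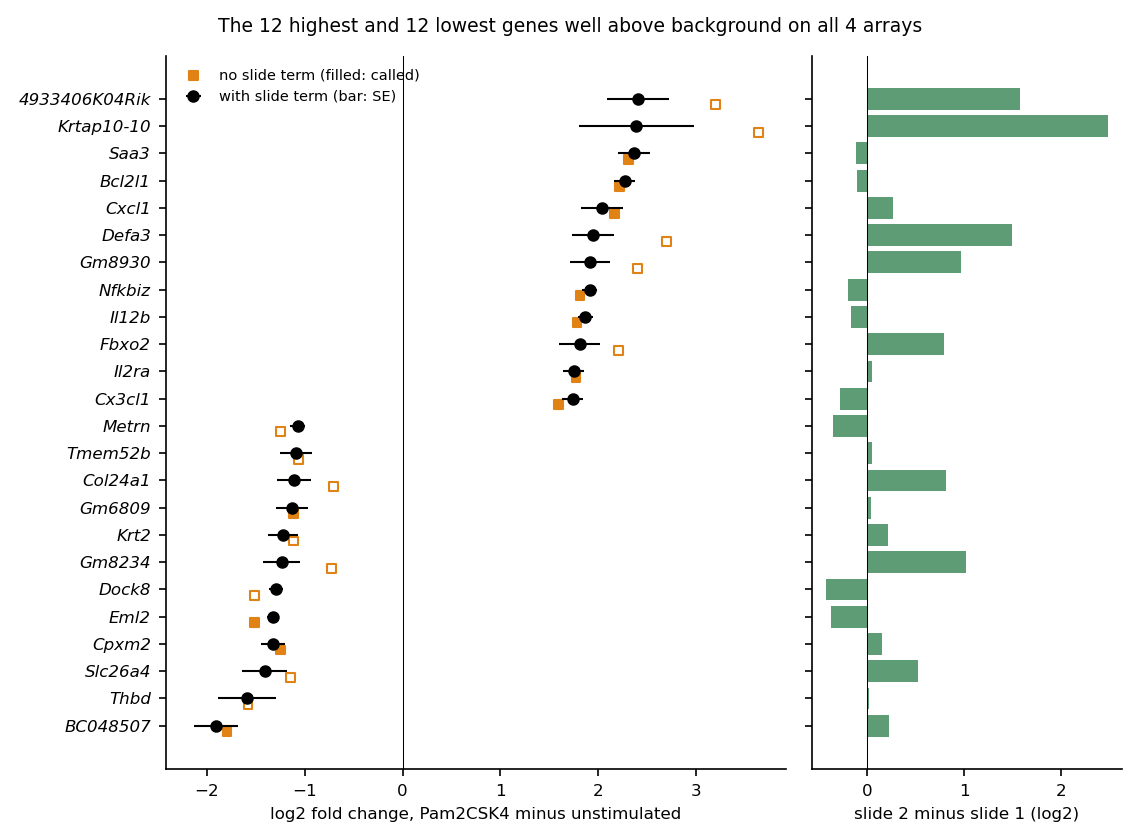
The 12 largest rises and 12 largest falls among called genes well above background and unsaturated on all 4 arrays: log2 difference between Pam2CSK4 and unstimulated cells with SE, with the slide term (black) and without it (orange, filled where called), and beside it the fitted slide 2 minus slide 1 difference (bars, log2). Of the 12 rises 7 and of the 12 falls 4 are called without the slide term, and 5 and 3 have slide differences over 0.5.

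For 158 genes, 1 condition was well above background on both arrays and the other on neither, so that only a bound can be given. In 70 the Pam2CSK4 arrays were the brighter and in 88 the unstimulated arrays. A bound sets the mean of the bright group against the lowest signal that counted as well above background on each dim array, or the signal of the probe where higher. It uses array values without the slide term, whereas the adjusted p beside it is that of the fit. The 5 largest were Lalba, at least 6.03-fold higher with Pam2CSK4 (adjusted p = 0.0022), Gm4224, at least 5.55-fold higher (adjusted p = 0.0184), Mylk2, at least 3.84-fold higher (adjusted p = 0.0806), Ehbp1, at least 3.16-fold lower (adjusted p = 0.00121), and Gm7560, at least 2.94-fold higher (adjusted p = 0.747). The Pam2CSK4 arrays disagreed for Lalba (−1.91 and −0.47), Gm4224 (−2.59 and −0.03), Mylk2 (−3.66 and −0.04) and Gm7560 (−3.63 and −0.71). In each the brighter array was replicate 2, alone on slide 2, so these bounds and their order rest on it. Replicate 1 alone would give smaller bounds. The Pam2CSK4 arrays of Ehbp1, an adaptor of endocytic trafficking, were −3.75 and −3.78. Without the slide term Ehbp1 alone of the 5 had an adjusted p under 0.05 by limma (0.00269). All 5 genes entered the test through 1 condition only, so no conclusion is drawn from any of these adjusted p-values.

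Pam2CSK4 was next set against each antibody given alone. Any effect of the antibody procedure cannot be told apart from that of the receptor here, because no isotype control was analysed. These comparisons use the same Pam2CSK4 arrays as above, so their calls are not independent of those against unstimulated cells. Against anti-CD86, 1458 genes (10.6%) were higher with Pam2CSK4 and 1375 (9.96%) lower. Of the 17 cytokine genes, 11 were higher and 3 lower, of 15 NF-κB inhibitors 8 and 0, of 11 survival genes 6 and 0 and of 17 activation genes 7 and 0. With median scaling these 4 lists had 8, 1, 3 and 2 genes higher and none lower, and the share of higher calls among all probes moved from 44.9% to 59.0%. Il6 was 1.64 higher with Pam2CSK4 than with anti-CD86 (adjusted p = 0.000902) and Clcf1 0.63 lower (adjusted p = 0.00565). By the criteria used above for the 12 genes, the largest differences upwards were Cxcl1 (2.85), Krtap10-10 (2.70), Ptgs2 (2.32), Il12b (2.31) and Tm4sf4 (2.22), and those downwards included Matn4 (−1.94), Sh3bp2 (−1.51), Dock8 (−1.49) and Ppp1r37 (−1.45).

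Array values show how these arose. Ptgs2 read −3.84 and −3.69 with anti-CD86 and −1.48 and −1.41 with Pam2CSK4, beside −3.10 and −3.81 in unstimulated cells. Matn4, a matrix protein, read −0.51 and −0.86 with anti-CD86 and −2.85 and −2.40 with Pam2CSK4, and its difference of −0.61 from unstimulated cells was not called (adjusted p = 0.123). Tm4sf4 and Krtap10-10 had slide differences of 1.42 and 2.49 and did not pass without the slide term.

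Against anti-CD40, 3114 genes (22.6%) were higher with Pam2CSK4 and 1867 (13.5%) lower, and the lists separated. Cytokines were mostly higher with Pam2CSK4, with 11 of 17 higher and 3 lower. Survival genes were mostly lower, with 1 of 11 higher and 8 lower, as were activation genes (2 and 11 of 17), NF-κB inhibitors (3 and 8 of 15), NF-κB subunits (0 and 4 of 5) and ribosome biogenesis genes (0 and 15 of 20). Scaling the arrays to their medians moves the median of all probes in this comparison to 0.37 and the share of higher calls among probes from 53.1% to 91.3%. Under it 1 survival gene, 2 activation genes, no NF-κB gene and 2 ribosome biogenesis genes were called lower and 10 cytokines higher. Without the slide term 4, 4, 3, 1 and 8 genes of these 5 lists were lower and 9 cytokines higher. The number of cytokines called higher was thus close under all 3 settings, and the numbers called lower in the other lists were smaller under both alternatives.

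Single genes made the contrast plain. Il12b read −0.72 and −0.81 with anti-CD40 and 1.82 and 1.69 with Pam2CSK4, a difference of 2.52 (adjusted p = 0.000119). Il2ra read 1.89 and 1.72 with anti-CD40 and −0.15 and 0.03 with Pam2CSK4, a difference of −1.86 (adjusted p = 0.000209), and Bcl2l1 read 3.54 and 3.34 with anti-CD40, 1.64 above Pam2CSK4 by the fit. Both genes had risen over unstimulated cells with Pam2CSK4, to a lower level than with anti-CD40, and this order was the same under median scaling and without the slide term. Icam1 (−1.21), Irf4 (−0.88), Pim1 (−1.02) and Ccnd2 (−1.28) were lower with Pam2CSK4 than with anti-CD40 in the same way. By the same criteria, the largest differences upwards after Il12b were Dmbx1 (2.29), Tm4sf4 (1.86), Fcrla (1.74) and Irs1 (1.72), and downwards Esam (−2.80), Matn4 (−2.51), Zbtb46 (−2.05), Il2ra and Yes1 (−1.80). Fcrla, a B cell protein related to Fc receptors, read 2.55 and 2.37 with anti-CD40, 4.25 and 4.15 with Pam2CSK4 and 4.49 and 4.45 in unstimulated cells, so that it was the anti-CD40 arrays that stood apart. Esam was likewise near its unstimulated level with Pam2CSK4 (−0.02, adjusted p = 0.964).

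The effect of Pam2CSK4 was also measured on a separate set of 4 arrays, TLR2.CD86 minus anti-CD86. That comparison shares no array with Pam2CSK4 minus unstimulated, only the slide term and the estimate of spread. In it 422 genes (3.06%) were called higher and 883 (6.39%) lower. Of the 670 genes called higher with Pam2CSK4 alone, 508 were positive there and 203 (30.3%) were called higher, which is 48.1% of the 422, and 8 were called lower. Of the 1436 called lower, 1245 were negative and 351 (24.4%) were called lower, 39.8% of the 883, and 7 were called higher. Of the 64 genes at least 2-fold higher, 60 were positive and 41 were called higher. Median scaling moves the median of all probes in this comparison to −0.16 and the share of higher calls from 48.5% to 65.0%. Pearson's r between both differences was 0.71 over the 2106 called genes and 0.40 over all genes tested, as a description over genes that share arrays and the slide term.

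**Figure D5:**
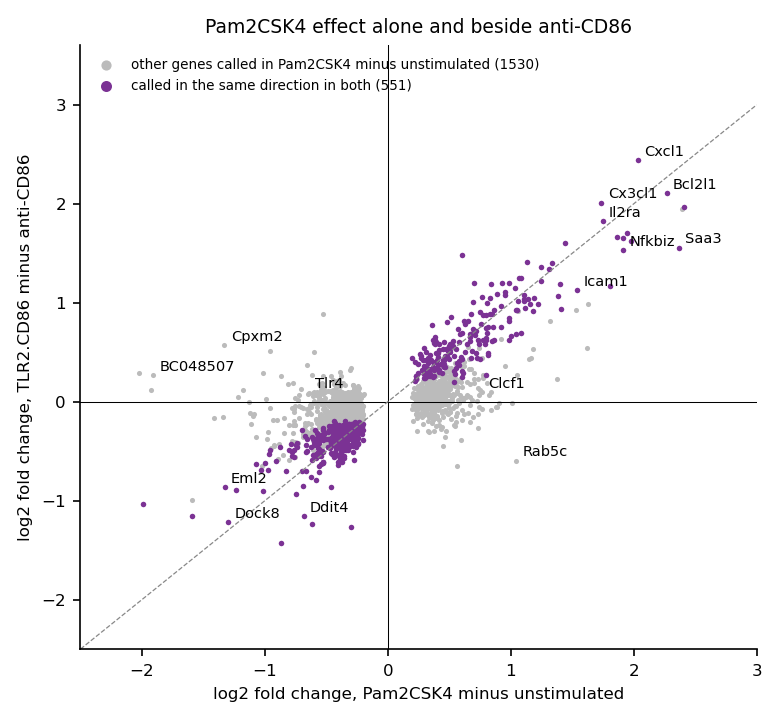
Log2 difference for Pam2CSK4 minus unstimulated (horizontal) and for TLR2.CD86 minus anti-CD86 (vertical), which share no array, over genes called in the former; purple marks 551 measured genes called in the same direction in both, grey the other 1530, and the dashed line equal effects. Most of the genes that were at least 2-fold higher alone also lie above 0 on the vertical axis.

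Leading genes are given side by side. The rise of Bcl2l1 was 2.27 alone and 2.11 with anti-CD86, that of Il12b 1.87 and 1.66, of Nfkbiz 1.91 and 1.53, of Il2ra 1.75 and 1.82, of Icam1 1.54 and 1.13, of Tnf 1.40 and 1.19, and of Irf4 1.04 and 0.92. The difference between both effects did not pass for any of these 7 (adjusted p from 0.126 to 0.832). The falls recurred less. Eml2 was −1.33 alone and −0.86 with anti-CD86 (adjusted p = 0.000827 by limma for the latter). BC048507 was −1.91 alone and 0.27 with anti-CD86 (adjusted p = 0.443), and Gm6809 −1.13 and −0.00011, which was not called. Cpxm2 was −1.33 alone and 0.58 with anti-CD86 (adjusted p = 0.0317). The rise of Tlr2 was 0.37 alone and 0.62 with anti-CD86 (adjusted p = 0.00459 for the latter). In the lists, 10 of 17 cytokines, 6 of 11 survival genes and 6 of 15 NF-κB inhibitors were called higher with anti-CD86 present. So were 5 of 17 activation genes, beside 3.06% of all genes. In these lists 1 survival gene was called lower, beside 6.39% of all genes. The test of the difference between both effects was passed by 34 genes (0.246%), of which 28 were called with Pam2CSK4 alone, and 2376 genes had an unadjusted p under 0.05. Rab5c, for an endosomal GTPase, read 3.46 and 3.47 in unstimulated cells and 4.48 and 4.25 with Pam2CSK4, but 3.31 and 3.01 with anti-CD86 and 2.69 and 2.44 with both. It thus rose by 1.04 ± 0.06 alone (adjusted p = 0.00121) and fell by 0.59 in the presence of anti-CD86 (adjusted p = 0.00433), with a difference between both effects of −1.64 ± 0.08 (adjusted p = 0.00241).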

How the data were processed

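RNA of RB cells was measured on 12 one-colour Agilent arrays, and the 4 of Pam2CSK4 and unstimulated cells are the subject here. The authors labelled RNA with Cy3 from an oligo-dT primer, hybridised a custom mouse array annotated to mm9 and read the scans with the Feature Extraction software. What the authors deposited per array are intensity values, already corrected for background by that software. The authors also deposited log2 values for the same arrays, which equalled the log2 processed intensity minus 1 constant per array for 61157 probes within 0.01, and these were used as an alternative. The methods name a one way test without a slide term.

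The log2 processed intensity minus the 75th percentile of each array was used. Control spots and outlier spots were left out, and saturated spots were kept (1090 to 1206 on these 4 arrays). A probe entered when the software marked it as well above background on each array of at least 1 of both groups. This held for 29248 of 61307 probes, of which 67 with a missing value were dropped and 29181 were tested, 7302 of them noncoding. The number of arrays limits the precision. Tests used limma 3.58.1 in R 4.3.3 on all 12 arrays, with a coefficient per condition and a term for the slide (from the array barcode), and p-values were adjusted over all 29181 probes by the method of Benjamini and Hochberg. Slide 2 held no unstimulated array, so its term comes from the conditions with an array on each slide, and 17981 probes differed between slides. The script was tested on simulated data. Tables and plots came from pandas 2.3.3 with numpy 2.4.6 and from matplotlib 3.10.9, under Python 3.11.15.

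Genes carry RefSeq symbols (assembly GRCm38.p6, used for names and promoters, matched for 34522 of 40628 probes other than noncoding) and are given by their brightest tested probe. Genes named were the 12 highest and 12 lowest among those called, well above background and unsaturated on all 4 arrays and non-overlapping between conditions, members of the gene lists by size with key uncalled members, the 5 largest bounds, and the 5 highest and 5 lowest against anti-CD86 and anti-CD40, of which some are not reported here. The members and lists were chosen with earlier results of these data known. Alternatives were no slide term, a random slide block, slide 1 alone, replicate blocks, the 4 arrays alone and an unmoderated one way test. Others were median or quantile scaling, normexp background correction, the authors' table and other filters. Each of the 4 arrays of Pam2CSK4 and unstimulated cells was also left out in turn. An isotype control was not analysed here, and doses were not used here.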

Additional observations from a re-analysis of the deposited data

Results flagged for a closer look

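The effect of Pam2CSK4 in the presence of anti-CD86 was tested against its effect alone (limma, adjusted p under 0.05). Of the measured genes named here, Rab5c, Tlr4, Cpxm2 and Tm4sf4 passed this test of the difference itself. Rab5c had a difference of −1.64 (log2, effect with anti-CD86 minus effect alone), with a rise of 1.04 alone and a fall of 0.59 with anti-CD86. Tlr4 had a difference of 0.74, with a fall of 0.64 alone and a value of 0.09 with anti-CD86 (adjusted p = 0.342). Its unstimulated arrays (−1.38 and −1.34) were higher than the arrays of Pam2CSK4, anti-CD86, TLR2.CD86 and anti-CD40, which spanned −2.03 to −1.59. Cpxm2 had a difference of 1.90, with a fall of 1.33 alone and a rise of 0.58 with anti-CD86. Tm4sf4 had one of 2.19 and a slide difference of 1.42. Ehbp1 and Lalba also passed, but Ehbp1 was not well above background with Pam2CSK4, nor Lalba in unstimulated cells. Their fitted differences of 1.18 and −2.69 are not measured sizes, and no conclusion is drawn from their tests. Lalba had a slide difference of 1.26.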

How the results depend on the processing

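The count of probes called depended on the slide term and on each of the 4 arrays. Of the genes named here, those called kept their sign under every alternative in which they were fitted. Over all called probes, 4009 of 4034 kept their sign without the slide term. Calls are given for Pam2CSK4 against unstimulated, against anti-CD86, against anti-CD40 and for TLR2.CD86 against anti-CD86 in that order, beside 4034, 6419, 8960 and 2878. They were 61, 336, 1446 and 65 without the slide term, 694, 1055, 3911 and 520 with median scaling, 130, 758, 3394 and 118 with no filter on dim probes, 175, 479, 1511 and 93 by an unmoderated one way test, and 0, 2, 1668 and 2 on slide 1 alone. The 4 arrays alone gave 0 for the first. At unadjusted p under 0.05, limma gave 8121 on slide 1 and 7777 on the 4 arrays. Normexp moved the fourth to 4333. Arrays were left out only among the 4 of Pam2CSK4 and unstimulated cells, so that the fourth comparison kept all arrays of its own. Leaving out 1 array gave 280 to 826, 1699 to 5045, 4136 to 7583 and 1360 to 1438. A replicate block in place of the slide gave 611, 1040, 3213 and 125, and a replicate block with the slide gave 1645 for the first. The replicate numbers share only a number here (correlation of deviations −0.05, and 0.03 after the slide term). The random slide block, quantile scaling, the authors' table and the stricter filter kept each count within 1.5 times.

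The share of calls that were higher for Pam2CSK4 against unstimulated was 41.2%, and it became 68.6% and 55.6% without Pam2CSK4 replicates 1 and 2, 60.9% and 59.6% without unstimulated replicates 1 and 2, and 71.5% with no filter on dim probes. Beside the scalings given above, it moved by over 10 points against anti-CD40 without the slide term (36.9%), on slide 1 (39.7%), by the one way test (40.6%) and with no filter (42.5%), and against anti-CD86 by the one way test (34.7%). For TLR2.CD86 it moved from 48.5% to 73.8% without the slide term, 72.0% with the replicate block in its place, 59.1% by the one way test and 79.7% with no filter. The 2 calls of each comparison with anti-CD86 on slide 1 were all lower. With median scaling 6 cytokines, 4 survival genes, 2 NF-κB inhibitors and 2 activation genes were called against unstimulated cells. Uncalled values that changed sign were those without the slide term for Tlr6 (−0.011), Relb (−0.043), Rel (−0.045), Bcl2 (−0.11), Il12a (−0.12) and Prdm1 (−0.030), with the same values under the replicate block in its place and the one way test. Prdm1 was −0.035 under the replicate block with slide and −0.0041 with normexp. Esam was 0.054 with median scaling and 0.032 with normexp. With 1 of the 4 arrays left out, Esam ranged from −0.16 to 0.18, Rel from −0.016 to 0.063 and Il12a from −0.0015 to 0.059. The cause of these changes was not tested.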
